A study of Mus musculus with 30 samples.

Results

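The anterior Hox genes followed here are 10 genes of paralogue groups 2 to 6: Hoxa3, Hoxa4, Hoxa5, Hoxb2, Hoxb3, Hoxb4, Hoxb5, Hoxb6, Hoxc4 and Hoxc5. They were chosen by name, with earlier results of these data known, and every probe set annotated to 1 of these symbols alone was taken. This gave 19 probe sets of 36701 on the arrays, for 10 of 15964 named genes. Chip A held 12 of the 19, chip B 4 and chip C 3. The gene with the largest fall was Hoxa5, and Hoxa3, Hoxb2, Hoxb4 and Hoxb6 also had a probe set that fell between embryonic days 12.5 and 16.5 (e12.5 and e16.5). None of the 19 probe sets rose.

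Expression was measured in dorsal pancreas of NMRI mouse embryos, a wild-type outbred stock, with no treatment, at e12.5, e13.5, e14.5, e15.5 and e16.5. At each stage the organs were pooled by litter, the pooled RNA was labelled in 2 reactions, and each was hybridised to the 3 chips (A, B and C) of the Affymetrix MG-U74v2 set. The 30 arrays thus hold 10 of each chip, 2 for each stage. As 1 pool stands for each stage, stage and pool cannot be told apart, and the spread within a stage is that of labelling and hybridisation. The tissue is a mixture of epithelium, mesenchyme, nerves and vessels, in which fewer cells of a type and less RNA per cell cannot be told apart.

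Hox genes encode homeodomain transcription factors that give cells their position along the head to tail axis. In mice they lie in 4 clusters, here named by the letter of each gene, and genes at the same place in different clusters form a numbered paralogue group. Low numbers are switched on first and reach furthest forward, into the hindbrain, neck and foregut. In the gut and its outgrowths Hox transcripts are found mainly in the mesenchyme around the epithelium and in nerves, and retinoic acid, Polycomb and trithorax proteins and the Pbx and Meis cofactors govern when and how they act.

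On GRCm38.p6 the Hoxa members lie on chromosome 6, with Hoxa3 annotated at 52169059 to 52213067, a span that covers Hoxa4 (52189682 to 52191703) and Hoxa5 (52201754 to 52204587). The Hoxb members lie on chromosome 11 and run, in order of coordinate, from Hoxb6 (96292814 to 96301569) through Hoxb5 (96303512 to 96306121) to Hoxb3 (96307101 to 96347930) and Hoxb2 (96351632 to 96354020). Hoxb4 (96318267 to 96321638) lies inside the span of Hoxb3. Hoxc5 (103014008 to 103017429) and Hoxc4 (103018097 to 103036856) lie next to each other on chromosome 15. Signal of a gene that lies within the span of another can hold transcripts of both.

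Of the 10 genes, 4 had an entry in the RefSeq promoter table of GRCm38.p6 (Hoxa3, Hoxa5, Hoxb4 and Hoxc4). The 250 bases before the annotated start are shown for the 3 of them that had a falling probe set, because these transcripts moved in the same direction. They are written 5′ to 3′ on the gene's strand, and capitals mark the homeodomain core TAAT and the retinoic acid receptor half-site AGGTCA on either strand.
Hoxa5, minus strand, chr6:52204588-52204837: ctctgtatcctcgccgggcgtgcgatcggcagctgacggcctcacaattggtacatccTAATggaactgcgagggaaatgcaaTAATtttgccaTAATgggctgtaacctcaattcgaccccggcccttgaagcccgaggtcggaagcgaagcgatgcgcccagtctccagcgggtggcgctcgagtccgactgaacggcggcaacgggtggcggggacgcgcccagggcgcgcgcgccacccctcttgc
Hoxa3, minus strand, chr6:52213068-52213317: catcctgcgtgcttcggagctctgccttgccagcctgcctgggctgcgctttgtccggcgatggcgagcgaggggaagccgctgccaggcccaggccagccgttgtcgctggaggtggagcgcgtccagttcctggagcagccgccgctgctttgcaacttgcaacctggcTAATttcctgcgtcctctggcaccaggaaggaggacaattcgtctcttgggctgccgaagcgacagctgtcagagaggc
Hoxb4, plus strand, chr11:96318017-96318266: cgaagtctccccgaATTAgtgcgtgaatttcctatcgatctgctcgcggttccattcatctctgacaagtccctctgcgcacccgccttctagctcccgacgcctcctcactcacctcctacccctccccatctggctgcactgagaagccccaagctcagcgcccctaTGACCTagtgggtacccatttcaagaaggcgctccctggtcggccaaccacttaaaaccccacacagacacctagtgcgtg
The Hoxa5 window holds TAAT 3 times, the Hoxa3 and Hoxb4 windows hold it 1 time each, and so does that of Hoxc4. Of 32851 windows of this length in the table, 54.9% hold it. AGGTCA occurs 1 time in the Hoxb4 window and 1 time in that of Hoxc4, in neither of the other windows, and in 14% of all windows. The Hoxc4 window, at 103034145 to 103034394, lies inside the annotated span of the gene and not before it. The Pbx-Hox site TGATNNAT, in 7.68% of windows, and the TATA box TATAAA, in 12.4%, are in none of the 4. These are matches of letters only, and none of them was tested for binding.

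Changes over the stages were first fitted as a straight line through the 5 pool means. They are given as the fitted log2 change over 4 days ± SE, and a probe set was called where the limma p, adjusted over all 36701 probe sets, was under 0.05. Of the 19 Hox probe sets 6 fell and 13 did not pass, against 13.1% of all probe sets falling. No Hox probe set rose, against 10.6% of all. The 6 belonged to 5 of the 10 genes. At 2-fold or more, 3 of the 19 fell (Hoxa5, Hoxb2 and 1 probe set of Hoxa3), against 2.67% of all. The median change of the 19 was -0.26, beside 0.03 over all probe sets. With the probe set of highest mean value for each gene, 5 of 10 genes fell, with a median of -0.45, against 17% of all genes falling. That is a choice of 1 probe set by brightness, and the other probe sets are accounted for below. As the genes were chosen with earlier results of these data known, the shares set side by side are a description only.

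**Figure D1:**
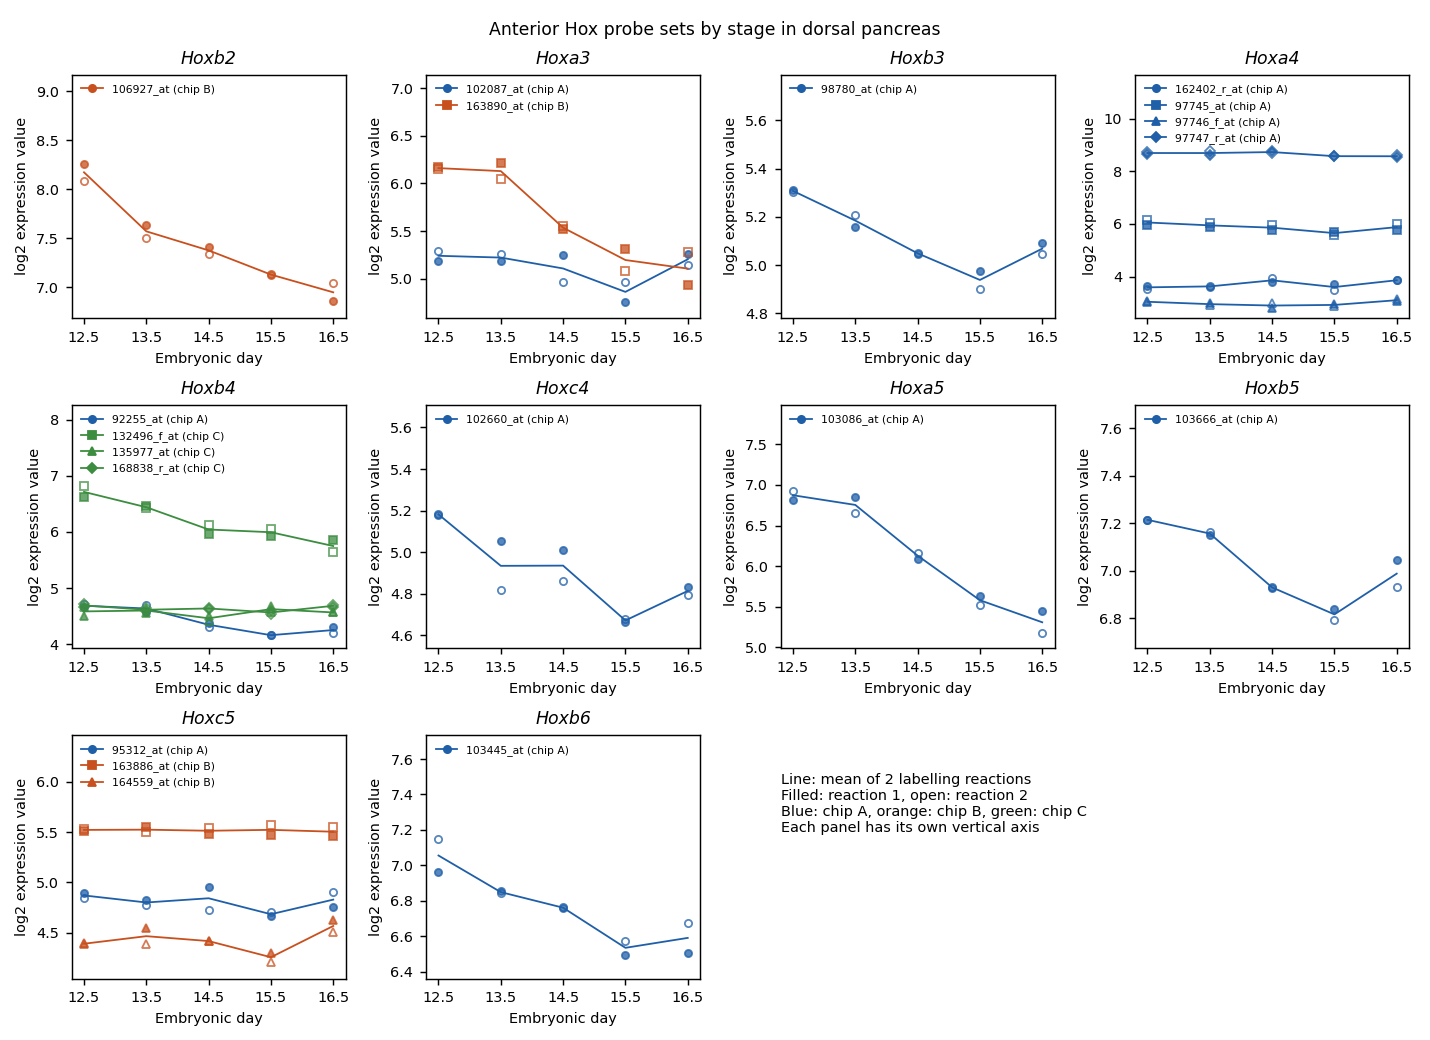
The log2 expression value of each of the 19 probe sets is plotted against embryonic day, 1 panel per gene in order of paralogue group, with a point for each array and a line through the mean of the 2 labelling reactions. The means of Hoxb2, Hoxa5, the chip B probe set of Hoxa3 and 1 chip C probe set of Hoxb4 decline at every stage. In all of these but Hoxb2, arrays of some neighbouring stages overlap. Hoxb3, Hoxb5 and Hoxc4 are lowest at e15.5.

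In paralogue group 2, the only member was Hoxb2, which patterns the hindbrain. Its values were 8.26 and 8.09 at e12.5, 7.64 and 7.50 at e13.5, 7.42 and 7.34 at e14.5, 7.13 and 7.13 at e15.5, and 6.85 and 7.04 at e16.5. Arrays of neighbouring stages did not overlap at any step. Hoxb2 fell by 1.16 ± 0.14 on the log2 scale, or 2.23-fold (adjusted p = 0.00157). Its largest step came first: e13.5 minus e12.5 was -0.60 ± 0.08 (adjusted p = 0.000305), and the later steps were -0.19, -0.25 and -0.18. Errors and p-values of single steps come from a separate limma fit with stage as a factor. They hold the spread of labelling, not of pools.

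Group 3 held Hoxa3, needed for the thymus, parathyroid and neck, and Hoxb3. On chip B, Hoxa3 had 6.17 and 6.15 at e12.5, 6.21 and 6.05 at e13.5, 5.52 and 5.55 at e14.5, 5.31 and 5.08 at e15.5, and 4.93 and 5.28 at e16.5. It stood level over the first 2 stages, lower at e14.5 and lower again at e15.5, where it overlapped e16.5. The fall was 1.22 ± 0.15 (adjusted p = 0.00169). The other Hoxa3 probe set, on chip A, gave -0.17 ± 0.16 (adjusted p = 0.467), with values between 4.76 and 5.29 that overlapped between each pair of stages neighbouring in level. Hoxb3 had 5.31 and 5.30 at e12.5, 5.16 and 5.21 at e13.5, 5.05 on both arrays at e14.5, 4.98 and 4.90 at e15.5, and 5.09 and 5.05 at e16.5, with a change of -0.29 ± 0.12 that did not pass (adjusted p = 0.117).

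Group 4 was the most heavily sampled, with 9 probe sets for 3 genes, of which 2 fell, both of Hoxb4. Hoxb4, known for promoting self-renewal of blood stem cells, had on chip C 6.62 and 6.81 at e12.5, 6.46 and 6.42 at e13.5, 5.96 and 6.13 at e14.5, 5.93 and 6.06 at e15.5, and 5.85 and 5.65 at e16.5. Only e14.5 and e15.5 overlapped. It fell by 0.95 ± 0.10 on this probe set (adjusted p = 0.00108), whose design allows similar sequences, so that its signal can hold related transcripts. On chip A, Hoxb4 fell by 0.54 ± 0.13 (adjusted p = 0.0267). This dim probe set had 4.66 and 4.71 at e12.5, 4.58 and 4.69 at e13.5, 4.38 and 4.31 at e14.5, 4.16 on both arrays at e15.5, and 4.31 and 4.19 at e16.5. Its call was lost without the e12.5 pool (-0.54, adjusted p = 0.115), without the e13.5 pool (-0.49, adjusted p = 0.0783) and without the second e16.5 array (-0.49, adjusted p = 0.0509). Both other Hoxb4 probe sets, on chip C, stayed between 4.42 and 4.72 on every array, with changes of -0.0046 ± 0.09 and -0.025 ± 0.08.

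Hoxa4, a gene that helps to pattern the neck vertebrae, had 4 probe sets and none passed. Their changes were 0.21 ± 0.14, -0.26 ± 0.13, 0.04 ± 0.12 and -0.15 ± 0.10, and the last of these sat at 8.54 to 8.78 on all 10 arrays. That bright probe set was designed under relaxed rules, and it stands for Hoxa4 wherever 1 probe set per gene is used. Only the probe set at -0.26, with a mean of 5.88, was designed under the standard rules. Hoxc4 had 5.18 on both arrays at e12.5, 5.05 and 4.82 at e13.5, 5.01 and 4.86 at e14.5, 4.66 and 4.68 at e15.5, and 4.83 and 4.80 at e16.5. Both arrays of e12.5 lay above those of every later stage. The fitted change of Hoxc4, -0.40 ± 0.13, did not pass (adjusted p = 0.0685), though it did with cyclic loess scaling (-0.44, adjusted p = 0.0385) and without the second e13.5 array (-0.45, adjusted p = 0.0452). Without the e12.5 pool it was -0.25 (adjusted p = 0.383).

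In group 5, Hoxa5, which acts in the mesenchyme of the lung and stomach, had 6.82 and 6.93 at e12.5, 6.85 and 6.65 at e13.5, 6.09 and 6.17 at e14.5, 5.64 and 5.53 at e15.5, and 5.44 and 5.18 at e16.5. Values overlapped between e12.5 and e13.5 only, and each later stage lay below the one before it. Hoxa5 fell by 1.72 ± 0.15, or 3.29-fold (adjusted p = 0.00107). Its step at e14.5 was -0.62 ± 0.10 (adjusted p = 0.00422) and that at e15.5 was -0.55 ± 0.10 (adjusted p = 0.00334), again with the spread of labelling only. Hoxb5, which acts in the vagal neural crest that forms gut neurons, had 7.22 and 7.21 at e12.5, 7.15 and 7.16 at e13.5, 6.93 on both arrays at e14.5, 6.84 and 6.80 at e15.5, and 7.05 and 6.93 at e16.5. It gave -0.32 ± 0.13 (adjusted p = 0.13), with e16.5 near e14.5. Hoxc5 had 3 probe sets at changes of -0.08 ± 0.11, -0.02 ± 0.09 and 0.06 ± 0.13, none of which passed.

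Among the members, group 6 held only Hoxb6, whose paralogues act in mouse pancreatic mesenchyme during endocrine cell formation. It had 6.96 and 7.15 at e12.5, 6.86 and 6.84 at e13.5, 6.76 and 6.76 at e14.5, 6.49 and 6.58 at e15.5, and 6.51 and 6.67 at e16.5. The arrays of e15.5 and e16.5 overlapped and both lay below those of the earlier stages. Hoxb6 fell by 0.50 ± 0.11, or 1.41-fold (adjusted p = 0.0207). The call was lost without the e12.5 pool (-0.40, adjusted p = 0.141), without the e13.5 pool (-0.52, adjusted p = 0.0575) and without the first e16.5 array (-0.43, adjusted p = 0.0529).

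**Figure D2:**
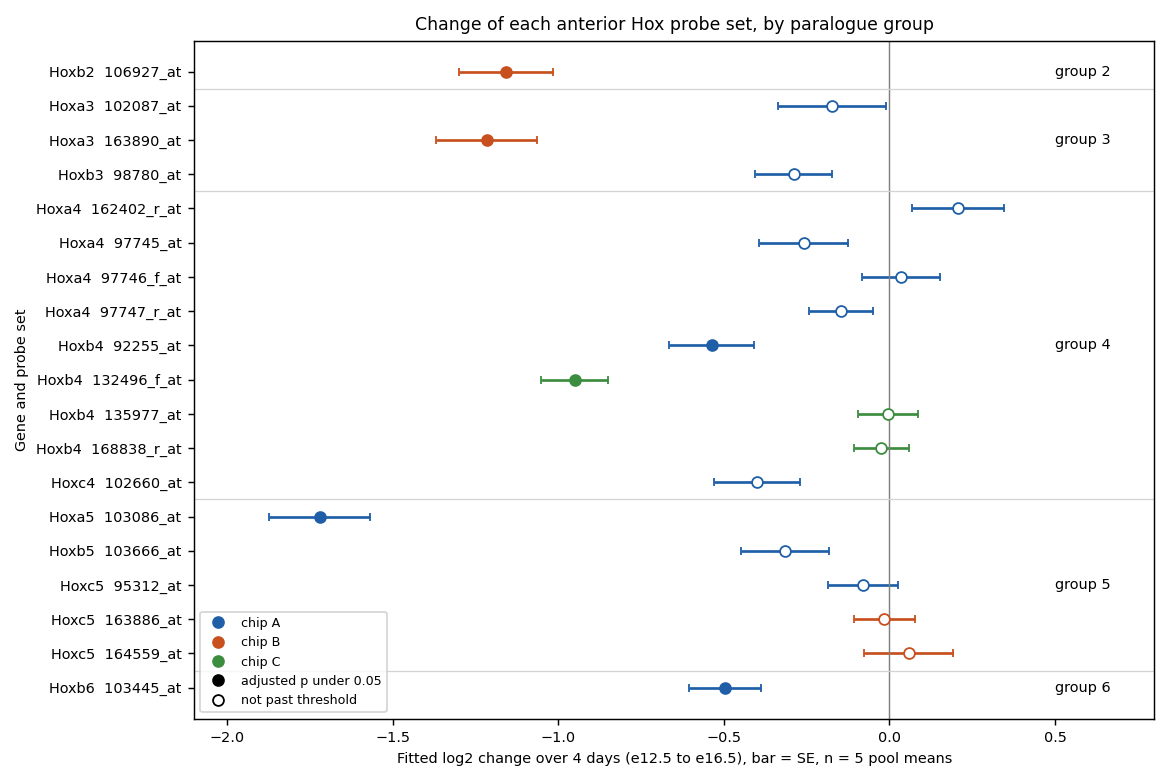
The fitted log2 change over 4 days is shown for each probe set with its SE (n = 5 pool means), in order of paralogue group, filled where the adjusted p was under 0.05. Falling probe sets occur in each of groups 2 to 6, and group 5 holds both the largest fall, Hoxa5 at -1.72, and Hoxc5 near 0.

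Paralogue groups are counted over the members only, which leaves out Hoxa2 of group 2 and Hoxa6 and Hoxc6 of group 6. By their brightest probe sets, Hoxa6 (0.20 ± 0.11) and Hoxc6 (0.20 ± 0.14) did not pass. By paralogue number, 1 of 1 member probe set fell in group 2, 1 of 3 in group 3 and 2 of 9 in group 4. In group 5 it was 1 of 5 and in group 6 it was 1 of 1. Group medians were -1.16, -0.29, -0.15, -0.08 and -0.50 in that order, with no steady course from low to high number. By cluster, 2 of 7 Hoxa, 4 of 8 Hoxb and none of 4 Hoxc probe sets fell, with medians of -0.17, -0.41 and -0.05. Over all probe sets 13.1% fell, and these groups and clusters are too small to be set apart from that share. Brightness went along with the calls here as over the arrays as a whole: 5 of 11 probe sets above the median level of their chip fell, against 19.2% of all such probe sets, and 1 of 8 at or below it, against 7.14% of all such. No detection calls were used here, and dim probe sets can understate a change. As a rough gauge, 35 chip A probe sets of genes typical of other tissues, such as milk, sperm and lens proteins, had mean log2 values with a median of 3.65 and a highest value of 7.34. Of the 12 Hox probe sets on chip A, 11 lay above that median and 1 above the highest, the Hoxa4 probe set of relaxed design. On chip B the 4 such probe sets had a median of 5.15, which 3 of 4 Hox probe sets exceeded, and on chip C the 8 had a median of 3.21, which 3 of 3 exceeded. The highest such values, 7.08 on chip B and 6.54 on chip C, were exceeded by 1 of 4 and by none of 3 Hox probe sets. Probes differ in how strongly they bind, so these levels do not settle which Hox genes were above background.

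The second comparison set e16.5 directly against e12.5, with stage as a factor over 10 arrays, and here a call needed both a 2-fold difference and an adjusted p below 0.05. It called 3 of 19 Hox probe sets lower, against 3.03% of all, and none higher, against 1.44% of all. Hoxa5 was lower at e16.5 by a log2 difference of -1.56 ± 0.10, a 2.96-fold difference. Hoxb2 had -1.23 ± 0.08 (2.34-fold) and the chip B probe set of Hoxa3 had -1.05 ± 0.10 (2.08-fold). The errors are those of labelling, not of pools. The call of Hoxb2 rested on the fold minimum and was missed after a second quantile normalization (-0.99), and that of Hoxa3 was missed without the first e16.5 array (-0.88). Both e16.5 arrays lay below both e12.5 arrays in 10 of 19 Hox probe sets, against 32.8% of all. With no fold minimum 9 of 19 were lower, against 23.4% of all, and 1 was higher, against 26.4% of all. In that one, of Hoxa4, the e16.5 arrays lay above the e12.5 arrays with an adjusted p of 0.0168. It had 3.86 and 3.85 at e16.5 and 3.65 and 3.53 at e12.5, and is a dim probe set designed under relaxed rules.

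The lowest stage differed between probe sets and went along with brightness. Over the 19 it was e15.5 in 10, against 14.1% of all probe sets, and e16.5 in 6, against 29.3% of all. By the brightest probe set of each gene it was e16.5 in 6 of 10 genes, against 33.7% of all genes, and e15.5 in 4, against 12.1% of all. Of the 6 probe sets that fell, 4 were lowest at e16.5, and the other 2, of Hoxb4 on chip A and Hoxb6, had e16.5 minus e15.5 differences of 0.09 ± 0.07 (adjusted p = 0.377) and 0.06 ± 0.08 (adjusted p = 0.668). The mean at e16.5 was above that at e15.5 in 12 of 19, close to the 53.2% over all probe sets. This held for 8 of 8 at or below the chip median, against 62.7% of all such probe sets, and for 4 of 11 above it, against 43.8% of all such. Errors and p-values of the steps are again those of labelling. No step between consecutive stages was called at 2-fold in any Hox probe set. Over all probe sets such calls were rare, with 0.049% lower and 0.079% higher at e13.5, 0.0245% and 0.106% at e14.5, 0.0708% and 0.294% at e15.5, and 0.114% and 0.215% at e16.5. Set against the mean of e12.5 and e16.5, e14.5 gave no call in a Hox probe set either, beside 0.136% of all lower and 0.0817% higher. With no fold minimum, at an adjusted p under 0.05, the first step was lower in 1 Hox probe set, that of Hoxb2, against 5.64% of all lower and 5.59% higher. The step to e14.5 was lower in 4, those of Hoxa5, Hoxa3 on chip B (-0.59 ± 0.10, adjusted p = 0.0042) and Hoxb4 on chip A (-0.29 ± 0.07) and chip C (-0.40 ± 0.09, both adjusted p = 0.0412), against 1.81% of all lower and 1.35% higher. The step to e15.5 was lower in 2, those of Hoxa5 and Hoxa3 on chip B (-0.34 ± 0.10, adjusted p = 0.0487), against 5.74% of all lower and 4.94% higher. None of these 3 steps was higher in a Hox probe set. The last step was higher in 3, the chip A probe set of Hoxa3 (0.34 ± 0.10), 1 of Hoxa4 (0.26 ± 0.08) and 1 of Hoxc5 (0.31 ± 0.07), against 8.31% of all, and lower in none, against 12.2% of all. These 3 lay at or below the median of their chip and did not pass the line fit. At 1.5-fold or more, 1 first step was lower, against 0.526% of all, and 2 steps to e14.5, against 0.245% of all.

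When the line was fitted without the e16.5 pool, 10 Hox probe sets of 9 genes fell, against 6.21% of all probe sets, and none rose, against 3.47% of all. Without the e12.5 pool 4 fell, and without the e13.5 pool 4. The 10 held all 6 called with every stage and 4 more, those of Hoxb3 (-0.50 ± 0.11, adjusted p = 0.0413), Hoxb5 (-0.57 ± 0.12, adjusted p = 0.0375), Hoxc4 (-0.61 ± 0.14, adjusted p = 0.0454) and 1 of Hoxa4 (-0.52 ± 0.11, adjusted p = 0.0442). Hoxc5 alone had no falling probe set in that fit. Its changes are still the slope times 4 days, though its pools ran only from e12.5 to e15.5, so they exceed the span measured. As e16.5 is 1 pool, stage and pool cannot be told apart here either.

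**Figure D3:**
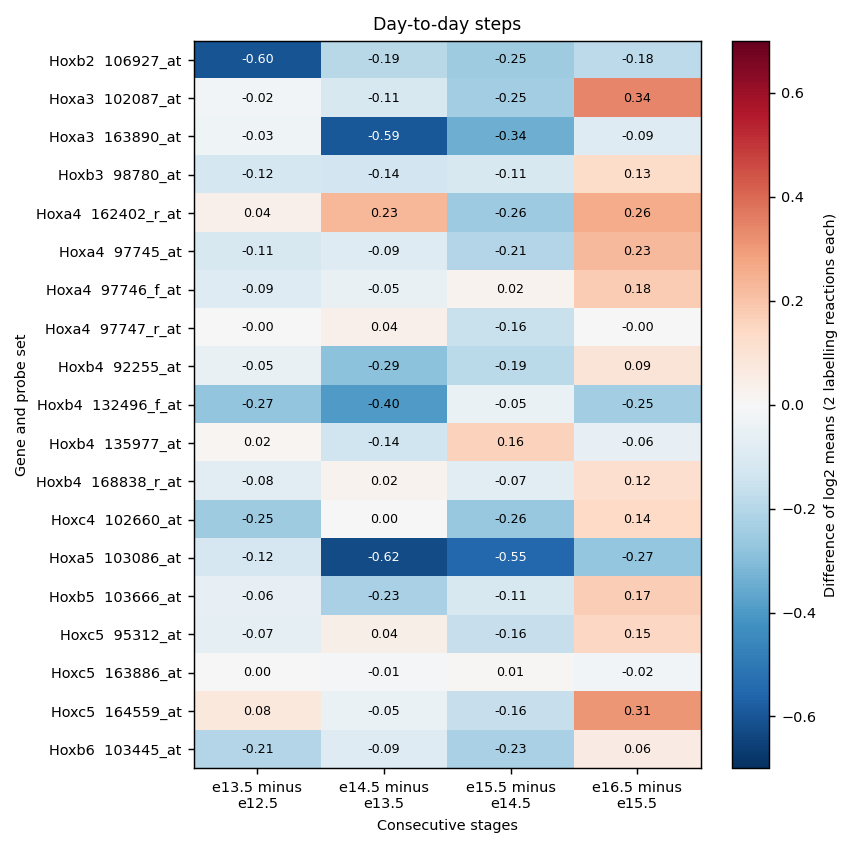
Colour and number give the difference of log2 means between a stage and the one before it, for the 19 probe sets in order of paralogue group. The strongest steps are those of Hoxb2 at e13.5 and of Hoxa5 and Hoxa3 at e14.5, near -0.6, and the last step, e16.5 minus e15.5, is positive in 12 of 19.

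Other genes with the most similar course were sought on the same chip, among named probe sets above the chip median, by the root mean square difference of stage-centred pool means over the 5 stages. Nearest to Hoxa5 on chip A were the neural cell adhesion gene Ncam1 (0.030 log2 units), the laminin gene Lama1 (0.034), the microfibril gene Mfap2 (0.060), the lysophosphatidic acid receptor gene Lpar1 (0.070) and the growth factor receptor gene Pdgfra (0.084), out of 5619 candidates. Nearest to the chip B probe set of Hoxa3 were Zdbf2 (0.080), Sertad4 (0.085), Ppp1r12a (0.091), Cltrn (0.092) and Kansl1 (0.093). The falling chip C probe set of Hoxb4 was nearest to Sting1 (0.023), Smad5 (0.041), Dact3 (0.052), Zfp629 (0.065) and Mapk8 (0.066). With 5 stages a close match is a description of shape only.

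The other Hox genes on the arrays, 23 with a named probe set, gave 1 fall and no rise by their brightest probe set, with a median change of 0.10. Among all genes 17% fell and 11.9% rose. Hoxa2, the neighbour of Hoxa3 on the hindbrain side of the cluster, fell by 0.49 ± 0.10 (adjusted p = 0.0155), and both of its probe sets fell. Its call was lost without the e13.5 pool (adjusted p = 0.0579) and without the e16.5 pool (adjusted p = 0.0977). Of these 23 genes 17 lay at or below the median of their chip, against 2 of the 10 members, so the lists differ in brightness. The other list also holds genes of low paralogue number, Hoxb1, Hoxd1 and Hoxa2, so the 2 lists are not a split by position. Beyond the brightest probe sets, 1 of 2 of Hoxa6 fell, and 1 of 2 of Hoxc9 and 1 of 3 of Hoxd8 rose.

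Among the cofactors that bind DNA with Hox proteins, 1 of 8 fell and none rose. Pbx3 changed by -0.40 ± 0.11 (adjusted p = 0.0386) and was lost in 11 of 24 alternatives. The median of the cofactors was -0.39, and Meis1 had -0.06 ± 0.07 by its brightest probe set (adjusted p = 0.585), while 1 of its 3 probe sets fell. Polycomb subunits, which keep silent Hox genes off, had 7 falling of 14 and none rising, with a median of -0.61. Cbx2, a chromobox subunit, fell with a change of -1.44 ± 0.10, the methyltransferase gene Ezh2 with -1.36 ± 0.19, Phc1 with -1.28 ± 0.18 and Eed with -0.82 ± 0.15. Of 10 trithorax and other regulators 3 fell and none rose. These were Gdf11, a signal that sets axial position, with -1.61 ± 0.12, the methyltransferase gene Kmt2a with -0.62 ± 0.13 and its partner Rbbp5 with -0.39 ± 0.11. Gdf11, Kmt2a and Rbbp5 had 2 probe sets each, of which 1 fell. Kmt2a was lost without the e13.5 or the e16.5 pool (adjusted p = 0.0532 and 0.105) and Rbbp5 in 8 of 24 alternatives. Over the arrays as a whole, 17% of all genes fell and 11.9% rose.

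Of 16 genes of retinoic acid supply and reception, 4 fell and 2 rose, with a median of -0.16, against 17% of all genes falling and 11.9% rising. Rdh10, which makes the retinoic acid precursor retinal, fell by 2.65 ± 0.18 (adjusted p = 0.000238), with means of 10.32, 9.90, 8.86, 8.19 and 7.86 from e12.5 to e16.5. Aldh1a1, an enzyme that oxidises retinal, rose by 3.71 ± 0.32 (adjusted p = 0.000951) by its brightest probe set, and 1 of its 2 probe sets rose. Aldh1a2, the main such enzyme of embryonic mesenchyme, had 0.02 ± 0.08 (adjusted p = 0.900) by its brightest probe set, and none of its 3 probe sets passed. The retinoic acid receptor gene Rara fell by 0.61 ± 0.16 (adjusted p = 0.0257), which was lost in 4 of 24 alternatives, and the retinal reductase gene Dhrs3 rose by 0.59 ± 0.15 (adjusted p = 0.0314), lost in 4 of 24.

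**Figure D4:**
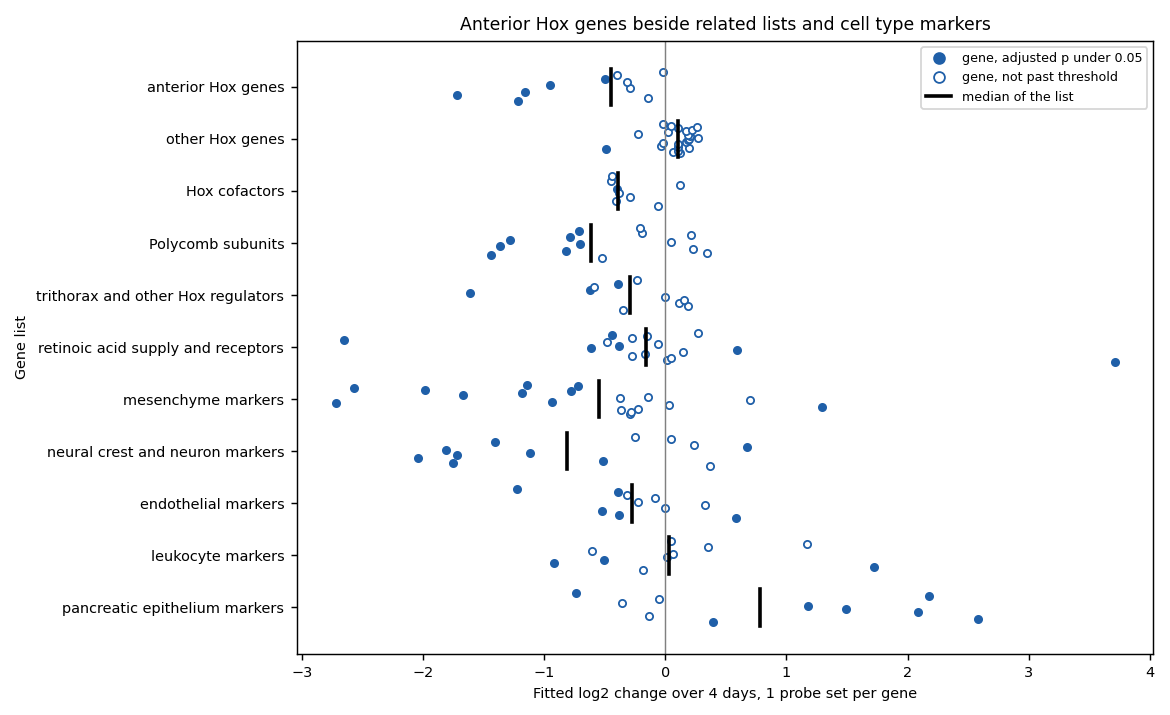
Each point is the fitted log2 change over 4 days of 1 gene, by its probe set of highest mean value, and the black bar is the median of its list. The anterior Hox genes have a median of -0.45, the other Hox genes one of 0.10, mesenchyme markers -0.55, neural markers -0.81 and epithelium markers 0.79.

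Markers of the tissue's other cells were followed over the same stages, beside 17% of all genes falling and 11.9% rising. Of 18 mesenchyme markers 9 fell and 1 rose. Hand2 fell with a change of -2.72 ± 0.12, Tcf21 with -2.57 ± 0.22 and Snai2 with -1.99 ± 0.19, all transcription factors of mesenchyme, while Col1a1 had -0.29 ± 0.20 and Foxf1 0.03 ± 0.09, which did not pass. Dcn, which encodes the matrix proteoglycan decorin, rose by 1.29 ± 0.19 (adjusted p = 0.00515), with means of 8.41, 8.61, 9.36, 9.31 and 9.67 in order of stage, and Lum, which encodes the related lumican, had 0.70 ± 0.26 (adjusted p = 0.0986). The mean log2 level of the list was 6.78 and 6.82 at e16.5, against 7.46 and 7.52 at e12.5. That of the 10 anterior Hox genes was 6.06 and 6.07 at e16.5, against 6.67 and 6.71 at e12.5. Of 12 neural crest and neuron markers 7 fell and 1 rose. The largest falls were those of the axon growth gene Gap43 (-2.04 ± 0.16), the neurofilament gene Nefm (-1.81 ± 0.23) and the endothelin receptor gene Ednrb (-1.75 ± 0.26). Nefm fell in 2 of its 3 probe sets and Ednrb in 1 of 2. Ret rose by 0.68 ± 0.19 (adjusted p = 0.044), lost in 6 of 24 alternatives, and Sox10 had 0.24 ± 0.12, which did not pass. The list's mean was 5.80 and 5.80 at e16.5, against 6.55 and 6.49 at e12.5. Of 10 endothelial markers 4 fell and 1 rose, and 2 of 10 leukocyte markers fell and 1 rose. Of 11 markers of neighbouring organs 2 rose, Vil1 (2.41 ± 0.31) and Alb (1.11 ± 0.21), and none fell. Of 10 markers of pancreatic epithelium 6 rose and 1 fell, with means of 8.05 and 8.06 at e16.5, against 7.22 and 7.25 at e12.5. Of the epithelium markers, Cpa1, a pancreatic enzyme gene, was the top of chip C. Ptf1a, which rose in 2 of its 4 probe sets, lay at percentile 97.8 of chip C by its brightest. Pdx1 lay near the median of chip A, at percentile 52.6, so not every marker of the tissue stood high. RMA gives no value of 0, so the absence of a marker could not be read. The part of these cell types in the Hox changes was not tested.

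**Figure D5:**
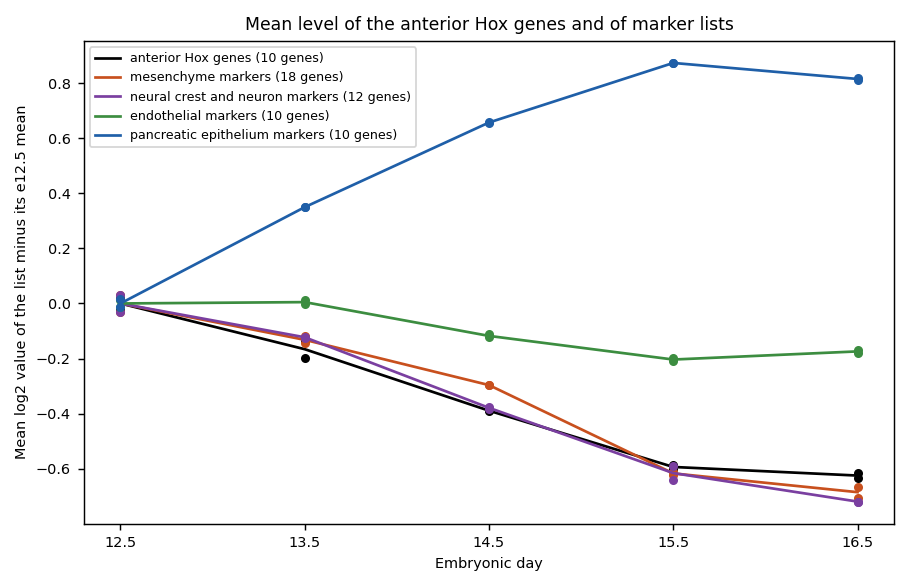
The mean log2 value of each list, minus its own mean at e12.5, is plotted against embryonic day, with a point for each labelling reaction over the 3 chips. The anterior Hox genes, the mesenchyme markers and the neural markers all lie below their start at e16.5, and the epithelium markers lie above theirs.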

How the data were processed

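RNA of dorsal pancreas was measured on 30 Affymetrix arrays, 10 for each of 3 chips. The authors deposited log2 values for probe sets, which the submitters' processing notes credit to RMA; the base of the logarithm was taken from the range of the values, and no software version was known. RMA equalises the distribution of arrays, so a change in total RNA is not seen. The median of an array was 5.71 to 5.757 for chip A, 5.261 to 5.307 for chip B and 3.993 to 4.025 for chip C. The 2 labelling reactions of a stage had correlations of 0.9957 to 0.9984. Precision is limited by how few arrays there are.

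GEO's platform annotation gave 1 symbol to 10833, 10581 and 7717 probe sets of chips A, B and C, several to 396, 178 and 150, and none to 1193, 1652 and 4001. Symbols were updated by Entrez identifier to RefSeq GRCm38.p6. Chips were treated as normalized separately, and levels were not tested between them. Tests used limma 3.58.1 in R 4.3.3, fitted on each whole chip, with Benjamini-Hochberg adjustment over the 3 chips and a threshold of 0.05. The line was fitted to 5 pool means, with the 2 labelling reactions of a pool averaged. Changes are the slope times 4 days in every fit, also where the first or last pool was left out. Stage contrasts used 10 arrays and a 2-fold minimum. The functions were tested on simulated data.

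The members and lists were chosen with earlier results of these data known. All member probe sets are named. From each related list up to 4 genes with the largest passing change were eligible (the 2 largest where none passed), from each marker list up to 3, and for likeness the 5 nearest genes. Not all eligible genes are named. Meis1, Aldh1a2, Col1a1, Foxf1, Dcn, Lum, Ret, Sox10, Pdx1, Hoxb1, Hoxd1, Hoxa6, Hoxc6, Hoxc9 and Hoxd8 were named after their values were seen. Reaction numbers did not pair samples: 1 of 30 correlations between the reaction differences of 2 stages was over 0.1 (range -0.176 to 0.11). Alternatives were other scalings (quantile again, median centring, cyclic loess), a trended prior variance, p-values adjusted chip by chip, a limit to bright probe sets, fits on all 10 arrays of a chip (with and without a block), the mean over a gene's probe sets, fold minimums of 1.5 and none, and leaving out each array and each pool.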

Additional observations from a re-analysis of the deposited data

How the results depend on the processing

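The 6 falling Hox probe sets kept their direction under all 24 alternatives of the line fit that tested them. The calls of Hoxa5, Hoxb2, the chip B probe set of Hoxa3 and the chip C probe set of Hoxb4 held in each, and those of the chip A probe set of Hoxb4 and of Hoxb6 were each lost in 3. The count of falling Hox probe sets was 10 without the e16.5 pool (6.21% of all probe sets fell), 4 without the e12.5 pool (9.08% of all), 4 with e13.5 left out (8.99% of all), and 5 to 7 with 1 array left out. With the reaction number as a replicate block in a fit on 10 arrays it was 9, through Hoxb3, Hoxb5 and Hoxc4, and over all probe sets 7313 fell and 7580 rose, against 4825 and 3886 in the fit on pool means. With the 10 arrays as replicates 7538 fell and 7957 rose, and without the e16.5 pool 2278 and 1275. Both of these fits on 10 arrays count the 2 labelling reactions of a pool as separate replicates, though they are 1 sample of a stage. Rising counts over all probe sets were 1874 with e12.5 left out and 2207 with e13.5 left out. In e16.5 against e12.5, without a fold minimum 9 Hox probe sets were lower (23.4% of all) and 1 higher (26.4% of all). With a 1.5-fold minimum 1 step was lower at e13.5 (0.526% of all) and 2 at e14.5 (0.245% of all), each against the stage before. The related lists together had 16 falling and 2 rising genes, but 9 falling and 1 rising without the e13.5 pool, and 1 rising without the e15.5 or the e16.5 pool. The cause of these shifts was not tested.

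Signs turned only in probe sets that passed in no setting. The dimmest Hoxa4 probe set had -0.046 with quantile normalization again, -0.049 with cyclic loess and -0.16 with e16.5 left out, and the brightest had 0.013 with cyclic loess. The chip C probe set of Hoxb4 with a change of -0.0046 had 0.020 (quantile again), 0.0079 (median centring), 0.0047 (cyclic loess), 0.024 (e12.5 left out) and 0.013 (e13.5 left out), and -0.073 to 0.064 with 1 array left out. The other one, at -0.025, had 0.00083 (quantile again), 0.056 (e12.5 left out) and 0.013 (e15.5 left out), and -0.052 to 0.0026 with 1 array left out. On chip B, the brighter Hoxc5 probe set ranged between -0.049 and 0.019 with 1 array left out, and the dimmer one had -0.013 (quantile again), -0.056 (cyclic loess) and -0.18 (e16.5 left out).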
